A study of Mus musculus with 5 samples.

Results

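The HoxC cluster is 1 of the 4 mouse Hox gene clusters and was followed here through its 9 protein-coding genes, Hoxc4, Hoxc5, Hoxc6, Hoxc8, Hoxc9, Hoxc10, Hoxc11, Hoxc12 and Hoxc13. Members were all probes whose gene symbol, ignoring case, was one of these names. The rule found 10 probes for 9 genes, among 26423 probes and 17742 named genes, with a pair of probes for Hoxc8 and 1 probe for each other gene.

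Transcripts were measured on 5 single-colour arrays, 1 for each group, in the mouse embryonic stem cell (ESC) line 46C and in cells derived from it. ESCs at day 0 grew over feeder cells, taken off before harvest, in medium holding 15% serum and 1000 U/ml of leukaemia inhibitory factor (LIF). Linc1405 knockdown and control cells at day 4, called mesoderm, had been given 0.2 ng/ml Bmp4, 5 ng/ml Activin A and 5 ng/ml VEGF. Linc1405 knockdown and control cells at day 10, called cardiomyocytes, had been given 10 ng/ml bFGF, 5 ng/ml VEGF and 25 ng/ml FGF10. Linc1405 is a long non-coding RNA. The titles name the knockdown samples MES_1405KIpA and CM_1405KIpA, a name the labels do not explain, and whether the line is 1 clone was not stated there. No probe could be tied to Linc1405 itself, so its own level was not checked.

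Hox genes encode homeodomain transcription factors that give cells their position along the body axis. Genes at the 3′ end of a cluster, such as Hoxc4, are used early and towards the head, and genes at the 5′ end, such as Hoxc13, late and towards the tail. Cdx factors, Wnt and FGF signals and retinoic acid open the clusters during gastrulation, Polycomb complexes keep them silent in stem cells, and Pbx and Meis proteins are their DNA-binding partners. In the mouse trunk the HoxC genes pattern vertebrae, spinal motor neurons and limb-level tissue.

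In the gene table of the assembly GRCm38.p6 the cluster also holds the long non-coding RNA gene Hotair and the microRNA genes Mir196a-2, between Hoxc10 and Hoxc9, and Mir615, within the Hoxc5 locus. No named probe stood for these 3 genes. The mature forms are shown because they are products of the same cluster, and miR-196a-5p is known to act on Hox transcripts, Hoxc8 among them. Sequences are from RefSeq, 5′ to 3′, with the seed (bases 2 to 8) in capitals. The first lies at chr15:102973365-102973386 and the second at chr15:103014969-103014990, both on the plus strand of GRCm38.p6.
mmu-miR-196a-5p: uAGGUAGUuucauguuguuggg
mmu-miR-615-3p: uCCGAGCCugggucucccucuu

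Of the 9 genes, 1 (Hoxc4) matched the RefSeq promoter table, which gives windows of 300 bases at gene starts. Its promoter is shown because Hoxc4 differed between the lines on both days. It lies at chr15:103034145-103034444 (GRCm38.p6, plus strand), with CG dinucleotides in capitals.
Hoxc4 promoter: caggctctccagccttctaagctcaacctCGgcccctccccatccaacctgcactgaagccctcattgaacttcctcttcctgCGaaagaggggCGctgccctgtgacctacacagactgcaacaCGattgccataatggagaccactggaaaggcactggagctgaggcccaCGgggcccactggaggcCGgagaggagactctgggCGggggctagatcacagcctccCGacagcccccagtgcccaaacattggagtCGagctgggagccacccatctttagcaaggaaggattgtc
This window held 9 CG dinucleotides, against a median of 7 over 32851 promoters of that length. On either strand it held none of 6 motifs searched. These were CAATAAA and CCATAAA (CDX type, in 4.6% and 2.75% of all promoters), AGGTGTGA (T-box, 1.28%), TGATTNAT (HOX-PBX, 3.22%), ATCAAAG (TCF/LEF, 3.73%) and the retinoic acid response element DR5 (0.00913%). Each was searched on its own, so matches of different motifs could overlap. The absence of these letters in 1 window says nothing about binding elsewhere in the locus.

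The deposited values were intensities that differed in overall brightness between arrays, with medians from 344 to 745, so they were quantile normalized and put on a log2 scale, with anything under 100 raised to that floor (6.64 in log2). A gene was counted as higher or lower where the log2 difference was at least 1 (2-fold) and the brighter of the arrays reached 9.16, the 50th percentile of all probes. Since no group had a replicate, the spread between cultures is unknown, nothing was tested, and a difference describes a pair of arrays. Genes with a pair of probes gave a between-probe SD of 0.21 for the day 4 lines (1035 genes) and of 0.27 for the day 10 lines (1078 genes), a measure of probe error only. These are bulk RNA samples, in which fewer cells of a type and less RNA per cell cannot be told apart. Whether each probe separates its gene from the related Hox genes was not tested here.

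The cultures carried the markers of their stages. Summed normalized intensities of 7 measured ESC markers were 488950 in ESCs, 10827 and 22064 in knockdown and control cells at day 4, and 5091 and 7765 in knockdown and control cells at day 10. Primitive streak and mesoderm markers (8 measured) summed to 10954 in ESCs, 142115 and 162293 in knockdown and control cells at day 4, and 39993 and 44584 in knockdown and control cells at day 10. The 7 measured cardiomyocyte markers summed to 7796 in ESCs, 11607 and 10621 in knockdown and control cells at day 4, and 284142 and 486695 in knockdown and control cells at day 10. Myh6, Myh7, Myl7 and Ryr2 were unnamed here.

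The lines were first set against each other in the mesoderm-stage cultures of day 4. Of the 9 HoxC genes, 5 were at least 2-fold higher in knockdown cells (Hoxc4, Hoxc6, Hoxc8, Hoxc9 and Hoxc10) and 0 were lower. The other 4 lay below the intensity filter in both arrays. The background was 0.804% of all genes past the filter in the higher and 1.47% in the lower direction. Hoxc6, Hoxc8, Hoxc9 and Hoxc10 passed the filter through the knockdown array alone, which by itself selects for a difference, while Hoxc4 passed it on both arrays. With no intensity filter the count was again 5 of 9, against 0.721% of all 17742 genes. The median log2 difference over the 9 genes was 1.01, against 0.00 over all genes.

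The same comparison at day 10, in the cells called cardiomyocytes, named the same 5 genes. Of the 9 HoxC genes, 5 were at least 2-fold higher in knockdown cells and 0 were lower, where 2.5% of all genes past the filter were higher and 3.61% were lower. Hoxc4, Hoxc6 and Hoxc8 passed the filter on both arrays, and Hoxc9 and Hoxc10 through the knockdown array alone. With no filter the count was 5, against 2% of all genes. The median log2 difference over the 9 genes was 1.097, against 0.00 over all genes. The arrays behind the day 4 and day 10 differences are not shared.

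**Figure D1:**
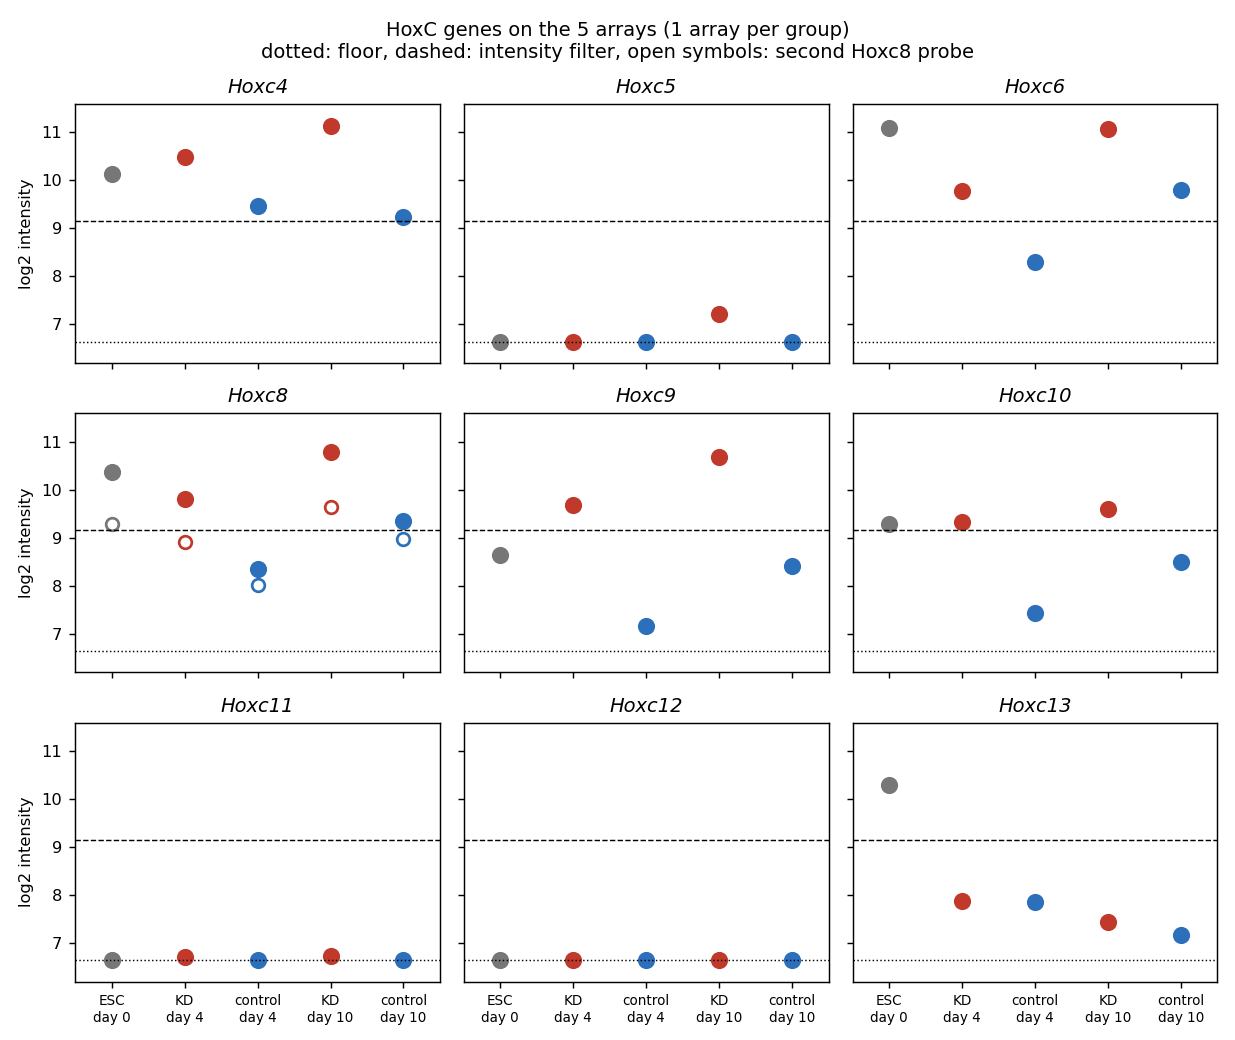
Log2 normalized intensity (vertical axis) of each HoxC gene on the 5 arrays: ESCs at day 0 (grey), knockdown (KD, red) and control (blue) at days 4 and 10, 1 array each, with no error bar since no group has a replicate. Open symbols are the second Hoxc8 probe, the dotted line is the floor at 6.64 and the dashed line the filter at 9.16. For Hoxc4, Hoxc6, Hoxc8, Hoxc9 and Hoxc10 the red point lies above the blue one on both days, and for Hoxc13 the ESC point at 10.29 lies above the other 4.

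At the 3′ end of the cluster, Hoxc4, a gene of neck and upper trunk identity, had a log2 intensity of 10.13 in ESCs, 10.49 and 9.47 in knockdown and control cells at day 4, and 11.13 and 9.24 in knockdown and control cells at day 10. Both knockdown arrays lay above the ESC array and both control arrays below it. The knockdown minus control difference was 1.01 at day 4, at the 2-fold limit, and 1.89 at day 10, a 3.69-fold difference. The day 4 value was under 2-fold with scaling to the 75th percentile (0.95) and with loess centring (0.98), which left 4 of 9 HoxC genes higher at day 4. Hoxc4 was the member for which the day 10 difference exceeded the day 4 one most, by 0.87.

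Hoxc5, its neighbour, lay at the floor on 4 of 5 arrays. The exception was the knockdown array at day 10, at 7.22, which puts that cell line at least 0.57 above control. Deposited intensities of Hoxc5 were 68 in ESCs, 145 and 37 in knockdown and control cells at day 4, and 91 and 46 in knockdown and control cells at day 10, all too dim to be counted. With a floor of 50 in place of 100, knockdown was at least 0.95 higher at day 4, with control still at the floor, and 1.07 higher at day 10. On the values as deposited both day 10 arrays were under the floor of 100, so the day 10 difference was 0. The knockdown day 4 array, at 145, was then above it.

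Hoxc6, a gene of the upper thoracic region, had a log2 intensity of 11.10 in ESCs, 9.78 and 8.29 in knockdown and control cells at day 4, and 11.06 and 9.80 in knockdown and control cells at day 10. The ESC array and the knockdown day 10 array were nearly level, and the control day 4 array was the lowest. Knockdown exceeded control by 1.49 at day 4 and 1.26 at day 10.

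Hoxc8, which gives thoracic vertebrae and forelimb-level motor neurons their identity, was read by a pair of probes. On the brighter probe it was at 10.38 in ESCs, 9.80 and 8.36 in knockdown and control cells at day 4, and 10.79 and 9.35 in knockdown and control cells at day 10. On the dimmer probe the same arrays read 9.29, then 8.92 and 8.02, then 9.65 and 8.98. Both probes put knockdown above control on both days, and both put control day 4 lowest. The differences were 1.44 at day 4 and 1.44 at day 10 on the brighter probe, and 0.90 and 0.67 on the dimmer one, where neither reached 2-fold. Averaged over both probes they were 1.17 and 1.06.

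Hoxc9, which sets thoracic motor neuron identity, showed the largest HoxC difference on both days. It was at 8.64 in ESCs, 9.68 and 7.17 in knockdown and control cells at day 4, and 10.69 and 8.42 in knockdown and control cells at day 10. The knockdown array was the higher of the pair on each day and exceeded the ESC array by 1.03 at day 4 and 2.05 at day 10. The knockdown minus control difference was 2.51 at day 4 (5.68-fold) and 2.27 at day 10 (4.82-fold). Among all genes past the filter, ordered from the highest difference, Hoxc9 held rank 6 of 10699 at day 4 and rank 46 of 10886 at day 10.

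Hoxc10, used at lumbar and hindlimb level, was at 9.30 in ESCs, 9.33 and 7.44 in knockdown and control cells at day 4, and 9.60 and 8.501 in knockdown and control cells at day 10. The knockdown arrays lay close to the ESC array, above it by 0.03 at day 4 and 0.30 at day 10, and the control arrays lay below. The knockdown minus control difference was 1.89 at day 4 (rank 14 of 10699) and 1.097 at day 10 (rank 223 of 10886).

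The 3 genes at the 5′ end lay below the filter in both lines on both days, so they could not be counted. Hoxc11, a lumbosacral and hindlimb gene, was at the floor in ESCs and both control arrays and just above it in knockdown cells, at 6.73 at day 4 and 6.74 at day 10. Its differences were at least 0.08 and at least 0.10. Hoxc12 was at the floor on all 5 arrays, with deposited intensities from 8 to 78. A gene at the floor gives no order between arrays.

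Hoxc13, which drives keratin genes in hair follicles and nails, was at 10.29 in ESCs, 7.89 and 7.86 in knockdown and control cells at day 4, and 7.44 and 7.17 in knockdown and control cells at day 10. It was the one HoxC gene above the filter in ESCs that no differentiated array brought to the filter. Knockdown minus control was 0.03 at day 4, within the between-probe SD, and 0.28 at day 10, about equal to it.

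**Figure D2:**
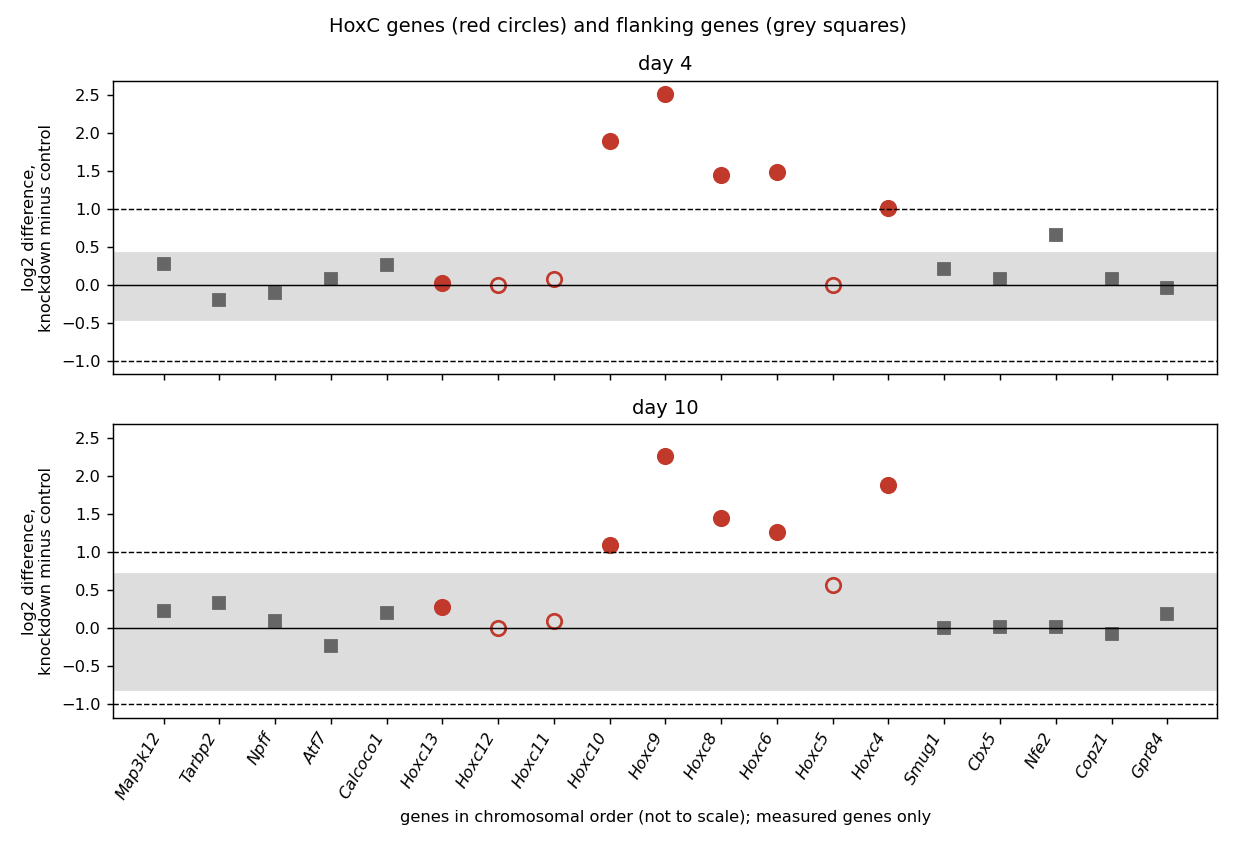
Log2 difference, knockdown minus control (vertical axis), at day 4 (upper panel) and day 10 (lower panel) for the HoxC genes (red circles; open where at least 1 array is at the floor) and the measured flanking genes (grey squares) in chromosomal order, 1 array per group. The grey band spans the 5th to 95th percentile of all genes past the filter and the dashed lines mark 2-fold; Hoxc4, Hoxc6, Hoxc8, Hoxc9 and Hoxc10 lie on or above the upper line on both days, with Hoxc9 highest at 2.51 and 2.27.

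Genes just outside the cluster were read from the 6 nearest protein-coding genes on each side, of which 10 were measured. At day 4, 0 of these 10 were at least 2-fold higher or lower in knockdown cells, and 4 of them (Calcoco1, Atf7, Map3k12 and Gpr84) lay below the filter and could not be counted. With 0.804% of all genes higher and 1.47% lower, a count of 0 does not set the flanking genes apart. The highest difference among them was that of Nfe2, an erythroid transcription factor, at 0.65, and the lowest that of Tarbp2, a microRNA processing factor, at -0.20. Smug1, next to Hoxc4, differed by 0.21 and Calcoco1, next to Hoxc13, by 0.27. At day 10, 0 of 10 reached 2-fold, with 4 below the filter (Atf7, Map3k12, Nfe2 and Gpr84), and the range was from -0.24 (Atf7) to 0.33 (Tarbp2). Cbx5, which encodes heterochromatin protein 1 alpha, was 0.07 higher in knockdown cells at day 4 and 0.02 higher at day 10.

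The control day 4 cells were then set against ESCs. Of the 9 HoxC genes, 4 were at least 2-fold lower in control day 4 cells (Hoxc6, Hoxc8, Hoxc10 and Hoxc13) and 0 were higher, where 13.9% of all genes past the filter were lower and 12.8% were higher. Hoxc6 differed by -2.81, Hoxc13 by -2.43, Hoxc8 by -2.02 and Hoxc10 by -1.85. Hoxc9 differed by -1.47 with both arrays below the filter, and Hoxc4 by -0.65. All 4 counted genes passed the filter through the ESC array alone. The other clusters stood differently on these arrays, with 6 of 10 HoxB, 4 of 9 HoxD and 0 of 10 HoxA genes at least 2-fold higher in control day 4 cells and 0 of them lower. Past the filter there were 8 HoxB, 7 HoxD and 3 HoxA genes, so most HoxA genes could not be counted.

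ESCs had grown on feeder cells, so fibroblast markers were read in this comparison. Of 10 measured fibroblast and feeder markers, 4 were at least 2-fold lower in control day 4 cells and 0 were higher. The background was 13.9% of all genes past the filter in the lower direction. Only 7 of the 10 markers passed the filter, and 6 of the 10 lay below 0 and 3 above it. The 10 markers summed to 38481 in control day 4 cells, against 104989 in ESCs. Dcn, a matrix proteoglycan gene, was at 8.94 against 13.80, and Postn, the periostin gene, at 9.25 against 13.77. Col3a1 was at the floor in both arrays and Lum in control day 4 cells alone. The part of feeder RNA in the ESC levels of HoxC genes was not tested.

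Knockdown day 4 cells set against the same ESC array gave 1 HoxC gene at least 2-fold higher (Hoxc9, 1.03; 13.7% of all genes) and 2 lower (Hoxc13, -2.40, and Hoxc6, -1.32; 14.7% of all genes). Hoxc10 differed from ESCs by 0.03, Hoxc4 by 0.36 and Hoxc8 by -0.58, each within the between-probe SD of 0.63 for that pair of arrays. Fibroblast markers were lower for 5 and higher for 2 of 10 in knockdown day 4 cells, with sums of 42793 in those cells and 104989 in ESCs. This comparison shares its ESC array with the one for control cells.

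The day 10 cells were set against the same ESC array. In knockdown day 10 cells 2 of 9 HoxC genes were at least 2-fold higher than in ESCs (Hoxc9, 2.05, and Hoxc4, 1.002; 23.5% of all genes) and 1 was lower (Hoxc13, -2.85; 22.3% of all genes). In control day 10 cells 0 of 9 were higher (22.9% of all genes) and 3 were lower (Hoxc13, -3.12, Hoxc6, -1.30, and Hoxc8, -1.03; 22.4% of all genes). Hoxc13 was thus the 1 HoxC gene lower than in ESCs on all 4 differentiated arrays by at least 2-fold, and Hoxc6 differed from ESCs by -0.04 in knockdown day 10 cells. Fibroblast markers were higher for 8 of 10 in knockdown and 7 of 10 in control day 10 cells, and lower for 1 of 10 in each.

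The step from day 4 to day 10 was read within each line. In knockdown cells 2 of 9 HoxC genes were at least 2-fold higher at day 10 (Hoxc6, 1.28, and Hoxc9, 1.02; 18.7% of all genes), and in control cells 1 of 9 was (Hoxc6, 1.51; 19.1% of all genes). In both lines 0 of 9 were lower, against 18.1% of all genes in knockdown and 19.4% in control cells. Only 5 of the 9 genes in knockdown cells and 3 in control cells passed the filter. These are too few to set their shares against that background. Hoxc8 differed by 0.99 in knockdown and 0.99 in control cells, just under the limit. Hoxc10 differed by 0.27 in knockdown and 1.06 in control cells, with both control arrays below the filter. Hoxc13 differed by -0.45 in knockdown and -0.70 in control cells. The between-probe SD was 0.71 and 0.74 for these pairs.

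**Figure D3:**
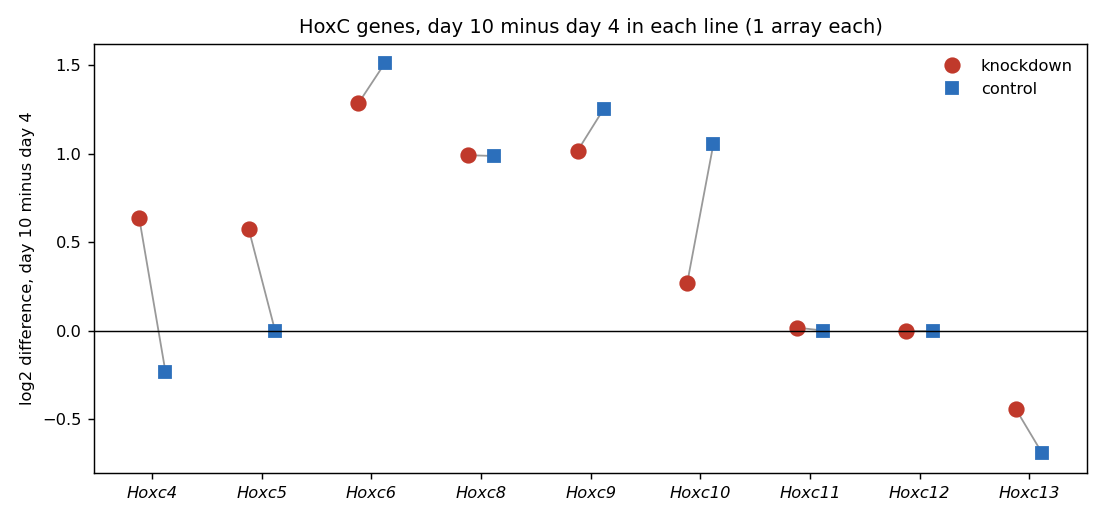
Log2 difference, day 10 minus day 4 (vertical axis), for each HoxC gene in knockdown (red circles) and control cells (blue squares), 1 array at each day. The points of Hoxc8 coincide at 0.99, those of Hoxc4 lie on both sides of 0 (0.64 and -0.23), and Hoxc10 has the higher value in control cells; Hoxc5, Hoxc11 and Hoxc12 rest on arrays at the floor.

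The day 10 difference minus the day 4 difference was -0.23 for Hoxc6, 0.00 for Hoxc8, -0.24 for Hoxc9, -0.79 for Hoxc10 and 0.87 for Hoxc4. Over all 11736 genes past the filter on any of the 4 arrays, this quantity had a 5th percentile of -0.90 and a 95th percentile of 0.89. All 5 values lay inside that range. The order of the differences was not the same on both days, with Hoxc9 and Hoxc10 highest at day 4 and Hoxc9 and Hoxc4 highest at day 10.

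Hox genes of the other clusters were set beside these values. At day 4, 4 of 10 HoxB, 3 of 9 HoxD and 2 of 10 measured HoxA genes were at least 2-fold higher in knockdown cells, next to 5 of 9 HoxC genes. At day 10 the counts were 0 of 10 HoxB, 4 of 9 HoxD and 4 of 10 HoxA genes, next to 5 of 9 HoxC genes. The genes past the filter were 9 HoxB, 7 HoxD, 4 HoxA and 5 HoxC genes at day 4. At day 10 they were 8 HoxB, 6 HoxD, 6 HoxA and 5 HoxC genes. Genes below the filter could not be counted, so counts over whole clusters are not on an equal footing. None of the 4 clusters held a gene at least 2-fold lower on either day. Whether the clusters differ from each other was not tested. The median difference at day 4 was 1.01 for HoxC, 0.42 for HoxA, 0.92 for HoxD and 0.91 for HoxB genes. At day 10 it was 1.097 for HoxC, 1.504 for HoxA, 0.70 for HoxD and 0.14 for HoxB genes.

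Among the genes of the same paralogue groups, Hoxd9 was higher in knockdown cells by 2.20 at day 4 and 2.40 at day 10, close to the values of Hoxc9. Hoxa9 was at least 0.87 higher at day 4, with control at the floor, and 3.34 higher at day 10, and Hoxb9 differed by 0.90 and 0.66. In the group of Hoxc10, Hoxa10 differed by 1.39 and 4.25 and Hoxd10 by 0.54 and 3.05, while Hoxc10 itself had its larger difference at day 4. In the group of Hoxc8, Hoxb8 differed by 2.61 at day 4 and -0.42 at day 10, Hoxd8 by 1.38 and 1.44, and Hoxc8 by 1.44 on both days. Hoxc4 and Hoxd4 were higher on both days, Hoxd4 by 1.34 and 1.46, whereas Hoxb4 differed by 1.25 and 0.10 and Hoxa4 by 0.04 and 0.05.

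**Figure D4:**
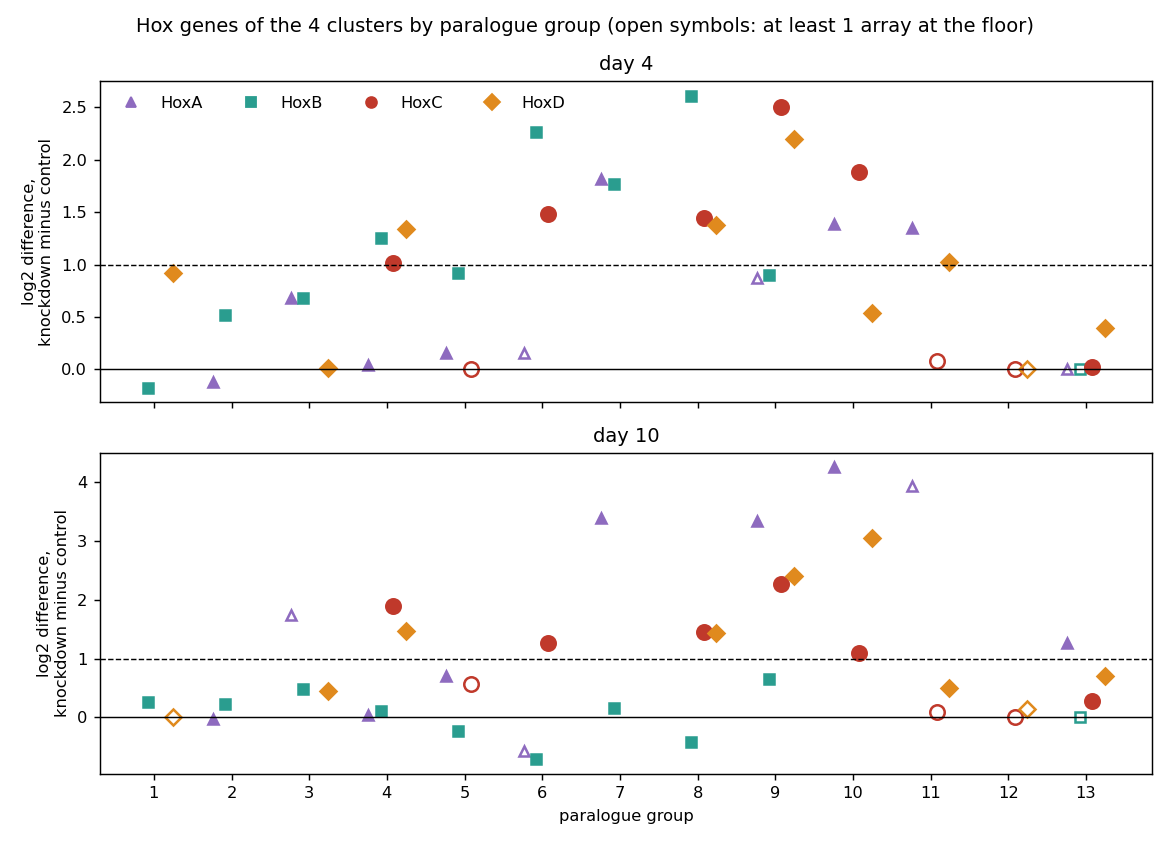
Log2 difference, knockdown minus control (vertical axis), of every measured Hox gene at day 4 (upper panel) and day 10 (lower panel) by paralogue group (horizontal axis), with HoxA (triangles), HoxB (squares), HoxC (circles) and HoxD (diamonds) and 1 array per group; open symbols have at least 1 array at the floor and the dashed line marks 2-fold. HoxC circles above the line are the same 5 genes in both panels, while HoxB squares lie above it at day 4 only, led by Hoxb8 at 2.61.

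Factors known to act on Hox clusters were read from lists. Of 19 measured axial upstream factors, 2 were at least 2-fold higher in knockdown cells at day 4 and 0 lower. They were Cdx4 (10.28 in knockdown and 8.26 in control cells) and Cdx2 (14.67 in knockdown and 12.96 in control cells), homeobox factors that activate trunk Hox genes. Wnt3a differed by 0.38, Fgf8 by -0.39 and T by -0.94 on the same arrays. At day 10, 2 of 19 were higher, Aldh1a2 (2.38), the main retinoic acid synthesis enzyme of the embryo, and Rarb (1.88), a retinoic acid receptor and target. At that day 3 were lower (Fgf8, -1.72, Evx1, -1.13, and Cdx1, -1.06), Cdx4 was at the floor in both lines and Cdx2 differed by -0.56.

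Chromatin regulators of the clusters mostly stayed under 2-fold between the lines, as did most genes past the filter. Of 27 measured Polycomb genes, 0 were at least 2-fold higher or lower on either day, with list medians of 0.03 at day 4 and 0.07 at day 10. Of all genes past the filter, 0.804% were higher and 1.47% lower at day 4, and 2.5% and 3.61% at day 10. A count of 0 thus does not set the Polycomb genes apart. Ezh2, the H3K27 methyltransferase gene, differed by 0.08 and 0.11. Eed and Suz12, its partners, differed by 0.00 and 0.03 at day 4. At day 10 they differed by -0.32 and -0.33. The list ran from -0.58 (Pcgf5) to 0.60 (Phc1) that day. All of it lay inside the 5th to 95th percentile of genes past the filter (-0.82 to 0.71). Of the 27 Polycomb genes, 14 lay above 0 and 13 below it at day 10. Of 11 measured trithorax and H3K27 demethylase genes, 0 reached 2-fold at day 4 and 1 was lower at day 10, Kdm6a (-1.68), an H3K27 demethylase. Wdr5, a subunit of H3K4 methyltransferase complexes, had differences of -0.02 (day 4) and 0.45 (day 10).

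Of 6 measured Hox cofactor genes, 0 reached 2-fold at day 4, and all 6 had values below 0, with a median of -0.25. At day 10, 1 of 6 was at least 2-fold higher, Meis1 (14.51 in knockdown and 13.44 in control cells, a difference of 1.08), and all 6 had values above 0. Of 13 genes of the hindlimb and lateral plate field, 2 were higher at day 4, Tbx4 (3.76) and Pitx1 (3.04), and 4 at day 10, Tbx4 (2.33), Osr1 (1.92), Pitx1 (1.12) and Prrx1 (1.04), with 0 lower on either day. Over all 13 genes the median difference was 0.09 at day 4, with 5 below 0, and 0.42 at day 10, with 4 below 0. The named genes mark lateral mesoderm, a tissue in which posterior HoxC genes are used in the embryo. The part of that tissue in the HoxC differences was not tested.

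Markers of other cell types were read on the same arrays as the HoxC differences. At day 4, 1 of 10 fibroblast markers was at least 2-fold higher in knockdown cells (Pdgfrb, 1.56) and 0 lower, with Col3a1 and Lum at the floor in both lines, and the list summed to 42793 in knockdown and 38481 in control cells. Of 9 measured spinal cord and motor neuron markers, 0 were counted as higher or lower on either day. Only 6 of them passed the filter at day 4 and 3 at day 10, so the rest could not be counted. They summed to 11830 in knockdown and 9369 in control cells at day 4. At day 10 the sums were 14411 in knockdown and 9989 in control cells. Chat was at the floor on all 5 arrays. Paraxial mesoderm markers gave 2 of 9 lower at day 4, with sums of 7324 in knockdown and 9877 in control cells, and 1 of 9 higher at day 10, with sums of 7835 in knockdown and 4663 in control cells. Also at day 4, liver-type endoderm markers were lower for 2 of 7 (median difference -1.02), with sums of 5112 in knockdown and 8535 in control cells. Endothelium markers were lower for 1 of 7 (median -0.76, with 6 of 7 below 0), with sums of 18611 in knockdown and 33258 in control cells. Intermediate mesoderm markers were lower for 1 of 7, with sums of 10055 in knockdown and 14747 in control cells, and blood markers were higher for 1 of 5. The part of these cell types in the day 4 HoxC differences was not tested.

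At day 10 the cell type markers shifted more. All 7 epicardium markers were at least 2-fold higher in knockdown cells, with sums of 157078 in knockdown and 45203 in control cells, and with Wt1 (2.61) and Tbx18 (2.10), transcription factors of the heart's outer layer, among them. Of 7 cardiomyocyte markers 4 were lower and 1 was higher, with Actc1 at -1.02 and Tnnt2 at 3.05. Liver-type endoderm markers were lower for 5 of 7, with sums of 24342 in knockdown and 163727 in control cells. Fibroblast markers gave 0 of 10 in either direction, with sums of 411487 and 356638. The part of these cell types in the day 10 HoxC differences was not tested. At day 4 the epicardium markers summed to 2097 in knockdown and 2512 in control cells, with 0 of 7 higher and 1 of 7 lower (Sema3d). Intermediate mesoderm markers were higher for 2 of 7 at day 10 (Osr1 and Wt1), with sums of 24648 in knockdown and 6500 in control cells. Their median difference was 0. Blood markers were higher for 1 of 5 and endothelium markers for 0 of 7. Some genes stood on more than 1 list, so the lists are not independent of each other. Wt1 was also an epicardium marker and Osr1 also a lateral plate gene, and Aldh1a2 was both an axial upstream factor and an epicardium marker.

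Genes with a course like that of the cluster were found from the mean profile of the 6 HoxC genes with at least 1 array past the filter, each centred on its own mean over the 5 arrays. The nearest of 12179 other genes was Lhx2, a LIM homeobox transcription factor, with a root mean square distance of 0.06 and a Pearson r of 0.997 over 5 arrays. Lhx2 was at 12.19 in ESCs, 11.79 and 10.39 in knockdown and control cells at day 4, and 12.38 and 10.87 in knockdown and control cells at day 10. Fgf18, a growth factor gene, followed at 0.26, and then Actn3, Krt13, Pard3b, Kit, Garnl3 and Wdr78, at distances from 0.32 to 0.39. The mean takes in Hoxc13, whose course was unlike that of the other members. Of the single members, only Hoxc8 and Hoxc10 had Lhx2 as nearest gene, at 0.20 and 0.23. With 5 arrays and many genes, close matches arise among unrelated genes, so the distance is a description only. Between pairs of members r over the 5 arrays ran from 0.64 to 0.97 among Hoxc4, Hoxc6, Hoxc8, Hoxc9 and Hoxc10, with Hoxc6 and Hoxc8 most alike, and from -0.16 to 0.41 between Hoxc13 and each of them.

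**Figure D5:**
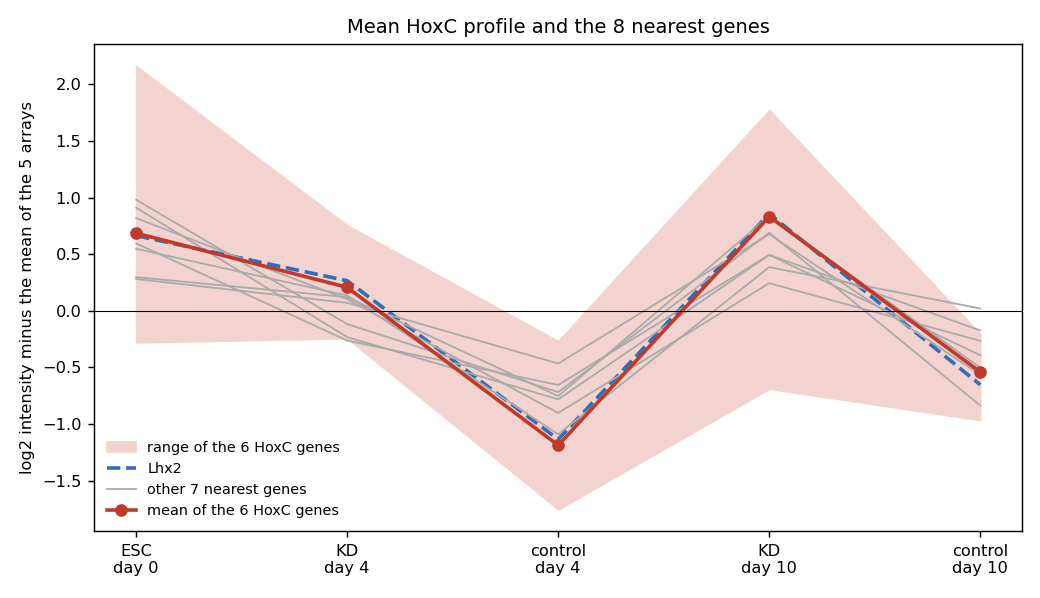
Log2 intensity minus each gene's mean over the 5 arrays (vertical axis), for the mean of the 6 HoxC genes past the filter (red), their range (shaded, lowest to highest gene), Lhx2 (blue dashes) and the other 7 nearest genes (grey), 1 array per group. The red and blue lines nearly coincide, both with their lowest point at control day 4, while the shaded range reaches 2.16 in ESCs through Hoxc13.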

How the data were processed

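RNA from 5 cultures was read on single-colour arrays labelled with Cy5. The deposited values were linear probe intensities made with Agilent Feature Extraction 10.7.1.1, per the submitters' processing notes. Some lay at or below 0, so a background had been taken off, and their medians differed between arrays. Most of these low values were on the knockdown day 10 array, with 1050 probes. Control day 4 had 38, ESCs 3, control day 10 3 and knockdown day 4 0. The effect of this on dim genes of the knockdown day 10 array was not tested. No other step by the authors was stated in the labels, and detection calls were not used here.

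With Python 3.11.15 the intensities were brought to the same distribution by quantile normalization, values under 100 were set to 100, and log2 was taken. This floor held 19.0 to 19.1% of an array's probes. A symbol was available for 20377 of 26423 probes, with names brought up to date from the GRCm38.p6 gene table, and 6046 had none here. Each gene was represented by its brightest probe.

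Groups came from the sample titles. As each holds 1 array, there was no p-value, and precision is limited by the number of arrays. The counting was tested on simulated arrays, with changes larger than 2-fold planted in brighter genes only. Differences near 2-fold in dim genes, as for several HoxC members, were not covered by it. Genes named were all HoxC members, the nearest profiles, the flanking genes and, from each list, those furthest along or against its median, besides examples chosen after their values were seen. HoxC members and lists were chosen with earlier results of these data known. Results were recomputed on the values as deposited, after scaling to the 75th percentile or loess centring (span 0.3), with floors of 50 and 200, with no filter or a stricter one, at 1.5-fold, and on the mean of all probes.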

Additional observations from a re-analysis of the deposited data

Results flagged for a closer look

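Between day 4 and day 10 Hoxc4 differed in opposite directions in the lines, by 0.64 in knockdown and -0.23 in control cells, a difference of 0.87 that was not tested. Each of these steps lies within the between-probe SD of its pair of arrays (0.71 and 0.74), and with loess centring the control step was 0.02.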

How the results depend on the processing

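No paired analysis was possible because each group holds 1 array. The 5 genes higher in knockdown cells on both days numbered 0 with a filter at the 75th percentile, as no HoxC gene is that bright on any array, and so did the 4 genes lower in control day 4 cells than in ESCs. Hoxc4 at day 4 was also under 2-fold with scaling to the 75th percentile (0.95) and with loess centring (0.98), so that 4 HoxC genes were higher under each. Without normalization between arrays the day 10 median over HoxC genes was 1.67. For day 10 against day 4 in control cells, the count of higher HoxC genes was 0 as deposited, 2 with loess centring, 3 with no filter, 0 with the filter at the 75th percentile and 2 at 1.5-fold, and 1 gene was lower as deposited (Hoxc4, -1.16). In knockdown cells it was 0 as deposited, 0 with the filter at the 75th percentile and 4 at 1.5-fold. Of 120 such values, 107 kept their size, as did 242 of 270 differences of single HoxC genes. A count kept its size within a factor of 1.5, and a median or difference within the between-probe SD of its arrays. Counts of 0 and genes at the floor, such as Hoxc12, had little room to move, so these totals do not measure robustness. For the values that moved, the cause was not tested.

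Over all genes, 86 were higher and 157 lower in knockdown cells at day 4, but 135 and 117 as deposited, 24 and 33 with the filter at the 75th percentile, 279 and 400 at 1.5-fold and 128 and 239 with no filter. At day 10 they were 272 and 393, but 1093 and 160 as deposited (median of genes past the filter 0.54), 116 and 181 with the filter at the 75th percentile and 795 and 924 at 1.5-fold. For control day 4 against ESCs they were 1447 and 1574, but 2289 and 1261 as deposited, 677 and 761 with the filter at the 75th percentile and 2677 and 2432 at 1.5-fold. For day 10 against day 4 they were 2139 and 2062 in knockdown cells, but 1408 and 4281 as deposited, and 2508 and 1496 with loess centring. In control cells they were 2182 and 2214, but 1092 and 5483 as deposited, and 2563 and 1601 with loess centring. Counts at 1.5-fold, or with the filter at the 75th percentile, were 3185 and 3686, or 1202 and 1194, in knockdown and 3174 and 3787, or 1222 and 1274, in control cells.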

Other observations

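Single HoxC genes had different nearest genes over the 5 arrays. Hoxc13 was nearest to Htatip2 and Dclk2, at distances of 0.07 and 0.10, and both were highest in ESCs (11.24 and 12.89) and lower on every differentiated array. Hoxc9 was nearest to Osr1, a zinc finger factor of lateral and intermediate mesoderm, at 0.49, and to Mapt, the tau gene, at 0.63. Osr1 was at 9.01 and 7.32 in knockdown and control cells at day 4 and at 11.13 and 9.21 in knockdown and control cells at day 10. Both day 4 arrays lay below the filter, and the differences were 1.70 at day 4 and 1.92 at day 10. Hoxc8 and Hoxc10 shared Lhx2 as nearest gene, at 0.20 and 0.23. Hoxc4 was nearest to Fgf18 and Plekhh2 (0.25 and 0.27), and Hoxc6 to Itga3, an integrin gene, and Kank4 (both 0.42).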
